A study of Mus musculus with 40 samples.

Results

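Transcripts of 9 genes of the co-inhibitory receptor system were followed in RNA-seq libraries of mouse T cells: Ctla4, Pdcd1, Lag3, Havcr2, Tigit, Btla, Cd160, Cd200 and Cd274. The genes were picked by symbol, and all 9 were found among the 21950 genes of the table. The study asked why regulatory T cells induced in culture with TGF-β (iTregs) are less stable upon restimulation than thymus-derived regulatory T cells (tTregs, called nTreg in the labels), and it used conventional CD4+ T cells (Tconvs) for comparison. The 24 libraries formed 8 groups of 3. Tconvs and tTregs were each taken at rest and after activation, and iTregs at rest, after restimulation, and after restimulation in the presence of CM-4620 or cyclosporine A (CsA). CM-4620 blocks the ORAI channel of store-operated calcium entry, and CsA blocks calcineurin, the phosphatase that activates NFAT.

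All cells came from Foxp3 reporter mice on a C57BL/6 background. Tconvs and tTregs were sorted from spleens of mice aged 2 to 4 months, with tTregs taken as CD4+ Foxp3-GFP+ cells. The sort does not separate thymic from other Foxp3+ cells of the spleen, and the gate of the Tconvs used for RNA-seq is not given in the sources used here. iTregs were made from naive (Foxp3 reporter-negative, CD62L high, CD44 low) CD4+ cells of mice aged 6 weeks, with anti-CD3 at 0.5 µg/ml, anti-CD28 at 1 µg/ml, TGF-β at 2 ng/ml and IL-2. After 4 days of induction the reporter-positive cells were sorted and rested for 1 day in IL-2. Restimulation was through CD3 and CD28. How long cells were activated or restimulated before RNA was taken is not stated, so that stimulated Tconvs, tTregs and iTregs may differ in time. The label of the CM-4620 libraries gives only an ORAI inhibitor, and they are called CM-4620 here since the study describes RNA-seq with no other inhibitor of this channel. Nothing says whether replicates came from separate mice or cultures, and p-values measure the spread between these libraries.

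Co-inhibitory receptors are membrane proteins that dampen signals from the T cell receptor and CD28. Some carry tyrosine motifs that recruit phosphatases after the receptor binds its ligand, whereas CTLA-4 competes with CD28 for shared ligands. They are induced by activation in conventional T cells, several are carried at high level by Foxp3+ cells as part of their suppressive equipment, and many of their genes are known targets of NFAT, which calcium and calcineurin bring to the nucleus.

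Recovered reads on genes numbered between 5256800 and 15685234 per library. The tTreg libraries were mostly shallower, with 5256800 to 9893053 reads, against 9808711 to 15685234 in the other groups. Values are given as normalized counts, that is gene counts that the authors divided by a size factor per library, and 3 reads, taken as the floor, were worth 2.12 to 5.45 normalized counts. The summed level of Treg markers (Foxp3, Il2ra, Ikzf2, Nrp1 and Lrrc32) was 890 to 925 in resting Tconvs, 32852 to 34665 in resting tTregs and 12986 to 16187 in resting iTregs. Of the B cell markers given here, Cd79b had 85.4 to 126 normalized counts in tTregs against 5.27 to 36.9 elsewhere, Cd79a had at most 22.6 in any library, and Ms4a1 was at 0 in all 24. Summed markers of myeloid and dendritic cells were at most 26.3. Of the NK cell markers, all 3 were at 0 in tTregs, and Ncr1 and Klrb1c were at 0 in every iTreg library. In Tconvs the NK cell markers summed to 93.9 to 112 at rest and 29.6 to 38.8 after activation. The CD8 T cell markers Cd8a and Cd8b1 summed to 223 to 236 in resting Tconvs, 157 to 178 in resting tTregs and 99.1 to 122 in resting iTregs. The part of such cells in the levels of the members was not tested. In whole-population RNA, fewer cells that carry a transcript and less transcript per cell cannot be told apart.

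The levels of the 9 genes differed widely between groups for most members and hardly for Btla. The ratio of the highest to the lowest group mean was 32.0 for Lag3, 28.5 for Tigit, 23.2 for Havcr2, 13.1 for Ctla4, 12.9 for Pdcd1, 6.48 for Cd200, 5.26 for Cd274, 5.07 for Cd160 and 1.73 for Btla. Per kb of exon, which allows genes to be compared, Tigit was the most abundant member in resting tTregs (1569 ± 228 normalized counts per kb, SD, n = 3), followed by Ctla4 (1243 ± 147) and Pdcd1 (1169 ± 220.3). In resting iTregs Ctla4 led with 920.0 ± 148 per kb, ahead of Lag3 (290.4 ± 13.1) and Cd200 (236 ± 22.6), and Tigit stood at 55.0 ± 12.1. In resting Tconvs the leading members were Tigit (319 ± 14.0 per kb), Pdcd1 (288 ± 18.0) and Btla (198 ± 15.3), and in activated Tconvs they were Lag3 (691 ± 10.0), Cd200 (305 ± 15.1) and Ctla4 (301 ± 13.2). Havcr2 and Cd160 had the 2 lowest levels per kb in all 8 groups.

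**Figure D1:**
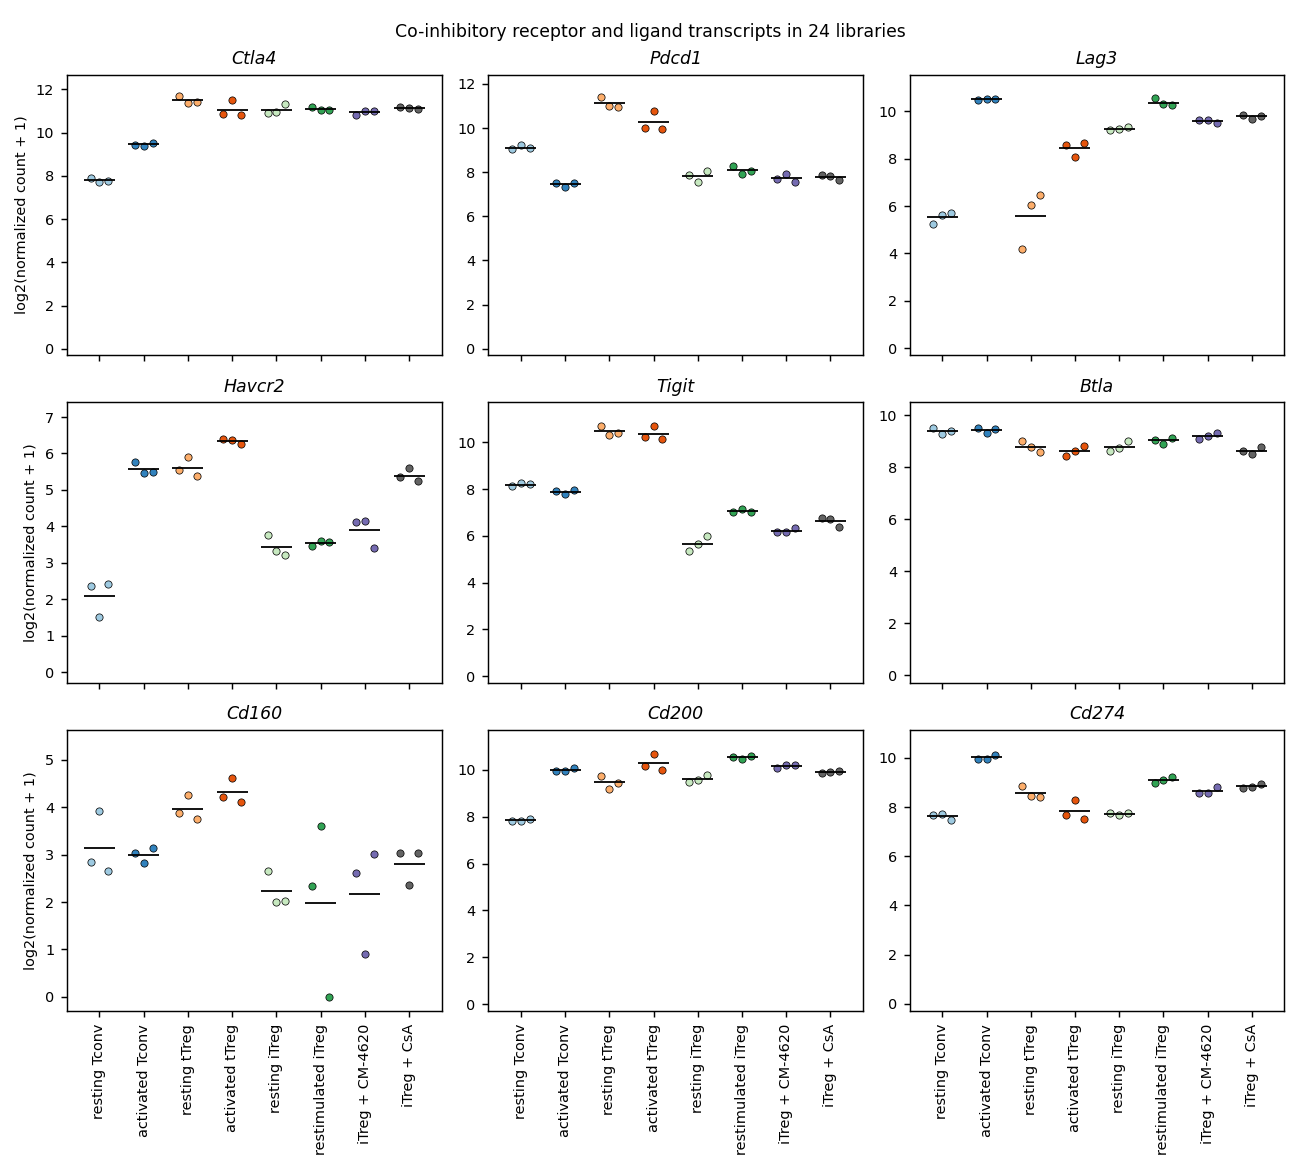
Level of each member in the 24 libraries. The y axis is log2(normalized count + 1), each point is a library and each line the mean of the 3 libraries of a group. Tigit is lowest in the 4 iTreg groups, Lag3 is high in stimulated cells and in iTregs, and Btla lies within a narrow band throughout.

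At rest, tTregs and iTregs carried different sets of these transcripts. Ctla4 was high in both, Tigit and Pdcd1 were high in tTregs and low in iTregs, and Lag3 was high in iTregs and low in tTregs. Resting iTregs had been stimulated in culture for 4 days, rested for 1 day, and came from younger mice. Kind of cell, recent stimulation, culture and age of the mice thus cannot be told apart where iTregs are compared with tTregs or Tconvs. A change was called where limma, fitted to log2(normalized count + 1), gave an adjusted p under 0.05 together with a log2 fold change over 0.5 in either direction. Against resting Tconvs, 7 of the 9 members changed in resting tTregs (6 higher, 1 lower; 38.6% of all genes tested changed, 20.5% higher and 18.2% lower) and 8 in resting iTregs (4 higher, 4 lower; 63.6% of all genes changed, 32.8% higher and 30.8% lower). Between resting iTregs and resting tTregs 6 changed, 1 higher and 5 lower in iTregs, where 63.4% of all genes changed, 32.3% higher and 31.1% lower. That count of changed members is near the share of all genes and is no result about them. Cd160 is among the members called lower in iTregs in both comparisons, and it passed the filter mainly through tTregs. Havcr2, counted as higher in resting iTregs than in resting Tconvs, passed it mainly through tTregs and activated Tconvs. In a fit of resting iTregs and resting Tconvs alone 3 members were higher and 3 lower. These comparisons share groups and are not independent of each other. The log2 fold changes are relative to the median of all genes, which was between -0.02 and 0.02 in these comparisons and moved by at most 0.14 with quantile normalization.

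CTLA-4 removes CD80 and CD86 from antigen-presenting cells and is a hallmark of Foxp3+ cells. Ctla4 (chr1:60887000-60915832, plus strand, GRCm38) had 237, 209 and 218 normalized counts in the 3 libraries of resting Tconvs, 3291, 2677 and 2722 in resting tTregs and 1913, 1979 and 2539 in resting iTregs. No Treg library overlapped with a Tconv library. It was higher by 3.70 ± 0.16 (log2 fold change, SE; adjusted p = 7.78e-11) in tTregs and by 3.26 ± 0.16 (adjusted p = 9.73e-11) in iTregs than in resting Tconvs. The level in iTregs was lower than that in tTregs by a log2 fold change of -0.44 (95% confidence interval -0.78 to -0.10; adjusted p = 0.0215), which is within the fold threshold. It was -0.69 with quantile normalization and -0.61 without replicate 3, both of which passed.

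PD-1, the receptor encoded by Pdcd1 (chr1:94038305-94052553, minus strand), recruits SHP2 to dampen CD28 and T cell receptor signals. Pdcd1 had 527, 594 and 545 normalized counts in resting Tconvs, 2748, 2020.3 and 2002 in resting tTregs, and 231, 185 and 266 in resting iTregs. The groups did not overlap, and iTregs lay below Tconvs while tTregs lay above them. The log2 fold change was 2.01 ± 0.19 (SE) for tTregs and -1.30 ± 0.19 for iTregs against Tconvs (adjusted p = 6.7e-07 and 2.33e-05), and -3.31 ± 0.19 for iTregs against tTregs (adjusted p = 9.55e-10).

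TIGIT competes with the activating receptor CD226 for CD155, the product of Pvr. Tigit (chr16:43648867-43664146, minus strand) had 279, 304 and 296 normalized counts in resting Tconvs, 1678, 1281 and 1366 in resting tTregs and 40.1, 49.4 and 62.2 in resting iTregs. Its mean was thus 1442 in tTregs and 50.6 in iTregs, the widest gap of any member between those groups. Tigit was higher by 2.29 ± 0.16 in tTregs (adjusted p = 2.42e-08) and lower in iTregs, by -2.53 ± 0.16 against Tconvs (adjusted p = 2.28e-09) and -4.82 ± 0.16 against tTregs (adjusted p = 2.83e-12).

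LAG-3 binds MHC class II and FGL1. Lag3 (chr6:124904361-124911705, minus strand) was highest in iTregs, with 37.0, 48.8 and 50.9 normalized counts in resting Tconvs, 17.2, 64.9 and 87.7 in resting tTregs, and 586, 610.4 and 641 in resting iTregs. Resting tTregs and Tconvs overlapped, and the 3 iTreg libraries lay above all others at rest. The log2 fold change in iTregs was 3.73 ± 0.40 against Tconvs (adjusted p = 6.01e-07) and 3.69 ± 0.40 against tTregs (adjusted p = 7.35e-07). Between resting tTregs and Tconvs it was 0.04 (95% confidence interval -0.81 to 0.88). The low value of 17.2 belongs to replicate 1 of resting tTregs, which rests on 19 reads. That library also held the highest Ctla4, Pdcd1, Tigit, Cd200 and Cd274 values of its group. Without it Lag3 was higher in tTregs than in Tconvs by 0.73 (adjusted p = 0.00335), and 8 members changed in that comparison.

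TIM-3, encoded by Havcr2 (chr11:46454935-46481255, plus strand), is a receptor for galectin-9 and other ligands that marks strongly activated and exhausted cells. Havcr2 had 4.11, 1.88 and 4.39 normalized counts in resting Tconvs (2 to 5 reads), 45.4, 58.4 and 41.0 in resting tTregs, and 12.6, 9.08 and 8.35 in resting iTregs (9 to 12 reads). The groups did not overlap. Its log2 fold change was 3.50 ± 0.26 in tTregs and 1.34 ± 0.26 in iTregs against Tconvs (adjusted p = 3.71e-08 and 0.000286). The first of these ranged from 2.65 to 3.84 with pseudocounts of 5 and 0.1, since the Tconv libraries were near the limit of 3 reads, and the second lost its call with quantile normalization (0.52, adjusted p = 0.0739). Havcr2 reached 10 normalized counts in 10 of the 15 libraries of resting iTregs, Tconvs and tTregs, 6 of which were tTreg libraries. Among resting iTregs and Tconvs only the library with 12.6 reached it, so that Havcr2 entered this comparison through other groups.

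CD200, which signals to its receptor on myeloid cells, and PD-L1, the ligand of PD-1 encoded by Cd274, act as ligands rather than as receptors on the T cell. Cd200 (chr16:45382135-45409053, minus strand) had 221 to 237 normalized counts in resting Tconvs, 579 to 864 in resting tTregs and 719 to 866 in resting iTregs. It was higher in both Treg populations than in Tconvs, by 1.62 ± 0.16 and 1.78 ± 0.16 (adjusted p = 8.67e-07 and 1.07e-07), and the difference of iTregs from tTregs was 0.15 (95% confidence interval -0.19 to 0.50). Cd274 (chr19:29367455-29388095, plus strand) had 178 to 207 normalized counts in resting Tconvs, 336 to 457 in resting tTregs and 204 to 219 in resting iTregs. It was higher in tTregs only among these comparisons with Tconvs (0.93 ± 0.17, adjusted p = 0.000337), with a log2 fold change of 0.11 (95% confidence interval -0.26 to 0.47) in iTregs. An antisense gene shares 14.1% of its exon bases, and the counting is not stated to use strand.

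BTLA and CD160 both bind HVEM, the product of Tnfrsf14. Btla (chr16:45224315-45257670, plus strand) had 619 to 723 normalized counts in resting Tconvs, 382 to 523 in resting tTregs and 399 to 511 in resting iTregs. It was lower in both Treg populations, by -0.59 ± 0.13 and -0.60 ± 0.13 (adjusted p = 0.00173 and 0.000811), close to the fold threshold. Without replicate 3 of every group the first became -0.47 and without replicate 1 the second -0.47, neither of which passed. Cd160 (chr3:96798763-96829351, minus strand) had between 0 and 25 reads in every library. It reached 10 normalized counts in 7 of the 15 libraries of resting iTregs, Tconvs and tTregs, 6 of which were tTreg libraries, so that it entered the comparison through the group where it was highest. Its means were 14.8 ± 2.99 in resting tTregs, 8.5 ± 4.84 in resting Tconvs and 3.78 ± 1.29 in resting iTregs (SD, n = 3). A call for lower Cd160 in iTregs than in Tconvs (adjusted p = 0.0285) was lost without replicate 2 and without replicate 3 (adjusted p = 0.376 and 0.0763).

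**Figure D2:**
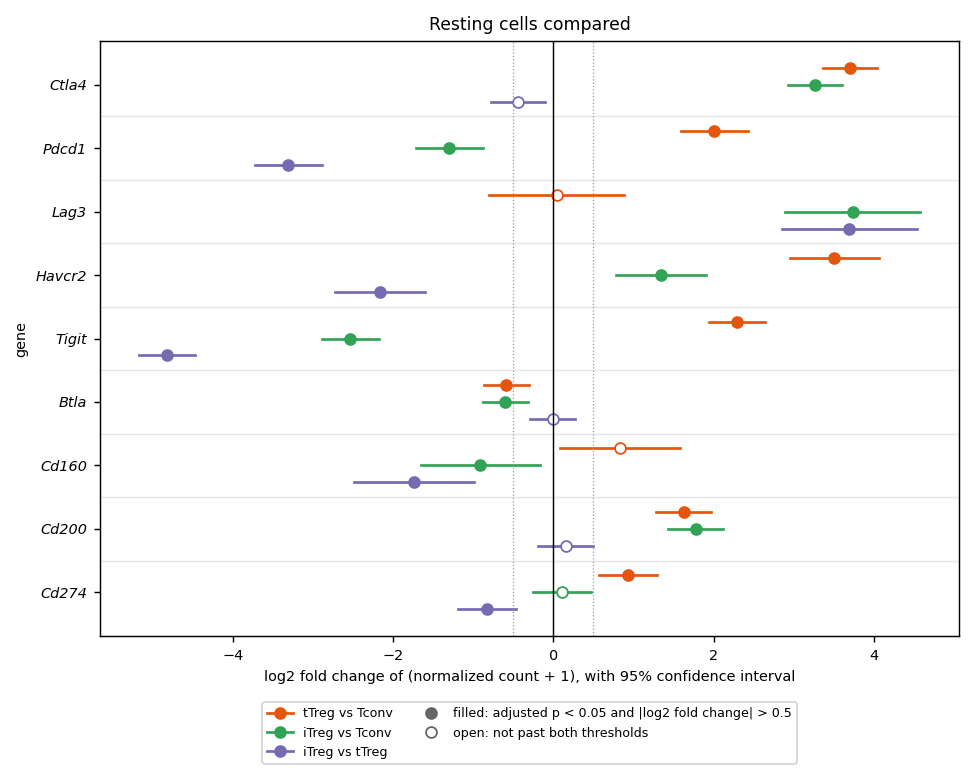
Log2 fold changes of the 9 members between resting cells. The x axis is the log2 fold change of (normalized count + 1), points are estimates and lines 95% confidence intervals, filled points passed both thresholds, and dotted lines mark a log2 fold change of 0.5 in either direction. Tigit and Pdcd1 lie on opposite sides of 0 for tTregs and iTregs against Tconvs.

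Upon stimulation, Lag3 and Cd200 rose in all 3 kinds of cells, by different amounts. Ctla4, Pdcd1, Havcr2 and Tigit were called in some of these responses, Cd274 was called in all 3 with opposite directions, and Btla and Cd160 were called in no response. In Tconvs, 6 of 9 members changed (5 higher, 1 lower; 50.2% of all genes changed, 24.5% higher and 25.7% lower), in tTregs 5 of 9 (3 higher, 2 lower; 21.9% of all genes changed, 11.9% higher and 10% lower) and in iTregs 4 of the 8 tested, all higher (12.8% of all genes changed, 6.7% higher and 6.13% lower). Cd160 was not tested in iTregs, where 1 of the 12 libraries reached 10 normalized counts. The median log2 fold change of the members was 1.66 in Tconvs, -0.11 in tTregs and 0.59 in iTregs, beside -0.04, 0 and -0.01 for all genes tested. A background near 50% in Tconvs makes the count of members there no result about them.

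Lag3 had the largest rise of any member in Tconvs and in tTregs. It went from a mean of 45.6 to 1437, 1454 and 1479 normalized counts in activated Tconvs (log2 fold change 4.98 ± 0.40, adjusted p = 4.95e-08), to 377, 269 and 398 in activated tTregs (2.86 ± 0.40, adjusted p = 0.000101), and from 586 to 641 to 1494, 1263 and 1212 in restimulated iTregs (1.10 ± 0.08, adjusted p = 1.38e-07). Resting and stimulated libraries did not overlap in any of the cell types. Between restimulated iTregs and activated Tconvs, whose libraries overlapped, the log2 fold change was -0.14 (95% confidence interval -0.83 to 0.54), and both lay above activated tTregs. That interval comes from the fit of all 24 libraries, whose spread includes that of tTregs. Resting iTregs also had higher Lag3 than activated tTregs, by 0.83, which was not called among the 15 libraries of these cells but was called in a fit of all 24 libraries (adjusted p = 0.0296), with edgeR (adjusted p = 0.0116) and without replicate 1 of resting tTregs (adjusted p = 0.000269).

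Ctla4 rose in Tconvs, from 209 to 237 to 697, 672 and 733 normalized counts (1.66 ± 0.16, adjusted p = 3.71e-07), and stayed below every Treg library. In tTregs it had 1853, 2899 and 1789 normalized counts after activation. These overlapped with the resting values, and the log2 fold change of -0.44 ± 0.16 (adjusted p = 0.0442) was within the fold threshold. Replicate 2 of activated tTregs held the highest Ctla4, Pdcd1, Tigit, Cd200 and Cd274 and the lowest Lag3 of its group, and without it the change of Ctla4 was -0.66 (adjusted p = 0.000915) and called. In restimulated iTregs Ctla4 had 2316, 2097 and 2129.8 normalized counts, a log2 fold change of 0.04 (95% confidence interval -0.16 to 0.23).

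Pdcd1 fell in activated Tconvs to 181, 159 and 183 normalized counts (-1.67 ± 0.19, adjusted p = 3.02e-06) and in activated tTregs to 1033, 1764 and 1008 (-0.87 ± 0.19, adjusted p = 0.00359). The resting and activated groups did not overlap in either. Without replicate 1 the change in tTregs was -0.59 and not called (adjusted p = 0.107). Restimulated iTregs had 310.2, 239 and 268 normalized counts and overlapped with resting ones (0.27 ± 0.14, adjusted p = 0.17).

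Cd274 moved in opposite directions in Tconvs and tTregs. It had 997, 1002 and 1114 normalized counts in activated Tconvs (2.39 ± 0.17, adjusted p = 1.58e-08) and 203, 314 and 182 in activated tTregs, below the 336 to 457 at rest (-0.73 ± 0.17, adjusted p = 0.00453). In restimulated iTregs it rose to 501, 542 and 604 from 204 to 219 (1.37 ± 0.09, adjusted p = 7.5e-08). Over all members, the response of Tconvs differed from that of tTregs in 6 of 9, 5 more positive and 1 more negative (34.7% of all genes differed, 17% higher and 17.7% lower). The response of iTregs differed from that of tTregs in 4, 3 more positive and 1 more negative (21.3% of all genes differed, 9.01% higher and 12.3% lower), and from that of Tconvs in 7, 2 more positive and 5 more negative (44.2% of all genes differed, 21.7% higher and 22.6% lower). For Cd274 the responses of Tconvs and tTregs differed by 3.12 ± 0.24 (adjusted p = 1.62e-07), the largest difference of any member, and those of iTregs and tTregs by 2.10 ± 0.21 (adjusted p = 3.07e-07). The fall in tTregs was not called without replicate 1 (-0.51, adjusted p = 0.121) nor in a fit of these 2 groups alone (adjusted p = 0.0576), and it was -0.97 without replicate 2 of activated tTregs.

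Tigit rose in iTregs, to 129.9, 141 and 128 normalized counts from 40.1 to 62.2 (1.40 ± 0.16, adjusted p = 1.25e-05). Its change was -0.30 in Tconvs (95% confidence interval -0.65 to 0.05) and -0.11 in tTregs (-0.46 to 0.24), neither of which was called. The difference in response was 1.70 ± 0.22 against Tconvs (adjusted p = 1.04e-06) and 1.51 ± 0.22 against tTregs (adjusted p = 2.31e-05). Even after restimulation Tigit in iTregs stayed below activated Tconvs, which had 219 to 252 normalized counts, by a log2 fold change of -0.83 ± 0.15 (adjusted p = 8.08e-05).

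Cd200 rose to 981, 987 and 1070.5 normalized counts in activated Tconvs (2.15 ± 0.16, adjusted p = 2.68e-08), to 1145, 1646 and 1014 in activated tTregs (0.82 ± 0.16, adjusted p = 0.00145) and to 1502, 1397 and 1527 in restimulated iTregs (0.91 ± 0.07, adjusted p = 3.28e-07). Stimulated and resting libraries did not overlap. Without replicate 2 the rise in tTregs was 0.47, within the fold threshold. Havcr2 rose to 53.9, 43.1 and 43.9 normalized counts in activated Tconvs (3.47 ± 0.26, adjusted p = 2.73e-08) and to 83.5, 81.4 and 76.3 in activated tTregs (0.74 ± 0.26, adjusted p = 0.04). The call in tTregs was lost under 6 alternatives, among them a pseudocount of 0.1 and the omission of replicate 2 of activated tTregs (adjusted p = 0.0752 and 0.0719). In restimulated iTregs Havcr2 had 10.1, 11.2 and 10.9 normalized counts on 10 to 12 reads, against 8.35 to 12.6 at rest, and its log2 fold change was 0.11 (95% confidence interval -0.49 to 0.70). Btla was called in none of the 3 responses, with log2 fold changes of 0.04, -0.17 and 0.24.

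**Figure D3:**
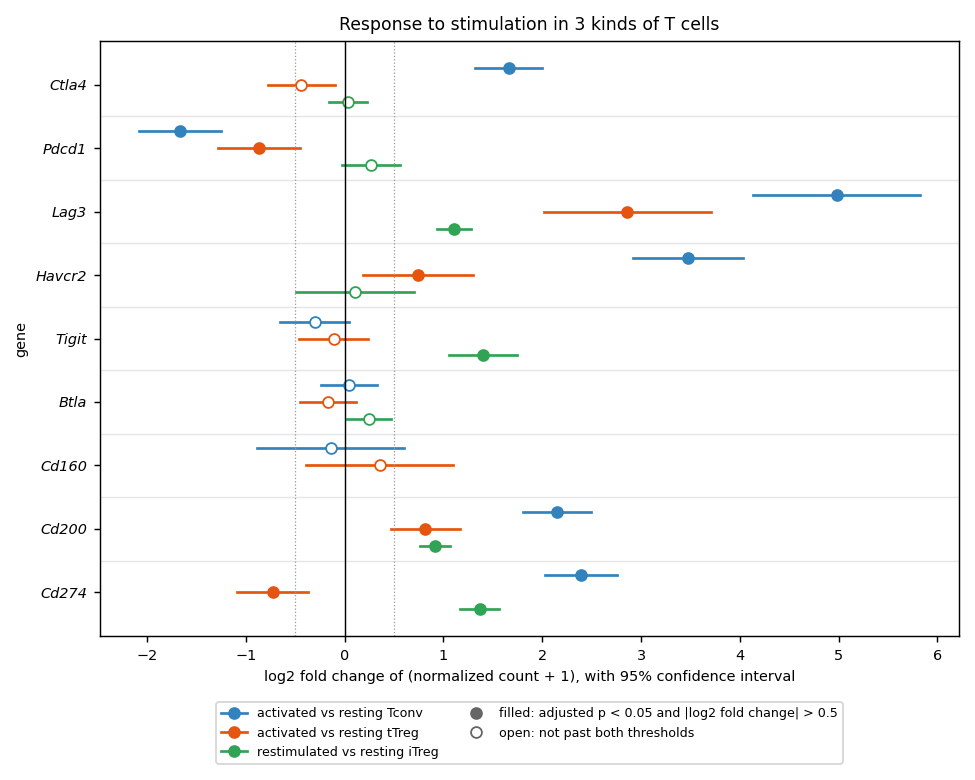
Response of the members to stimulation in Tconvs, tTregs and iTregs. The x axis is the log2 fold change of (normalized count + 1) between stimulated and resting cells, with 95% confidence intervals, and filled points passed both thresholds. Intervals of Cd274 lie above 0 in Tconvs and iTregs and below 0 in tTregs, and those of Tigit lie above 0 in iTregs alone. Cd160 was not tested in iTregs.

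Stimulated cells were also compared directly. Activated tTregs differed from activated Tconvs in 8 of 9 members (5 higher, 3 lower; 48.2% of all genes changed, 25.6% higher and 22.6% lower). Restimulated iTregs differed from activated tTregs in 6 (2 higher, 4 lower; 59.3% of all genes changed, 30.5% higher and 28.8% lower) and from activated Tconvs in 6 (3 higher, 3 lower; 44.3% of all genes changed, 24.4% higher and 20% lower), the latter split becoming 2 higher and 4 lower with quantile normalization. Resting iTregs differed from activated Tconvs in 6 members (1 higher, 5 lower; 41.6% of all genes changed, 22.9% higher and 18.7% lower) and from activated tTregs in 5, all lower (57.1% of all genes changed, 28.9% higher and 28.2% lower). The numbers of members changed between iTregs and activated tTregs are near the shares of all genes and are no result about the members. Cd160 is counted among the higher members in activated tTregs against activated Tconvs, and among the lower ones in restimulated and in resting iTregs against activated tTregs. It passed the filter mainly through the tTreg libraries, where it is highest, and is no support for these counts. Its call against activated Tconvs was lost with all 24 libraries in 1 fit (adjusted p = 0.073). With all 8 groups in 1 fit, the order of means for Tigit was tTregs, Tconvs, iTregs, and neighbours that differed were activated tTregs over resting Tconvs (2.18, adjusted p = 6.11e-11), activated Tconvs over restimulated iTregs (0.83, adjusted p = 8.08e-05) and CM-4620-treated over resting iTregs (0.56, adjusted p = 0.023). For Ctla4 the 4 iTreg groups and both tTreg groups stood within the thresholds of their neighbours, and a step of 1.48 (adjusted p = 5.96e-09) separated them from activated Tconvs. For Cd200 a called step separated neighbours only between resting tTregs and resting Tconvs, and for Btla none did.

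The 4 members that rose upon restimulation of iTregs were Lag3, Tigit, Cd200 and Cd274. The sequences around the start sites of 3 of them are shown beside that of Havcr2, which did not pass the test upon restimulation but was higher with CsA in the same cells. Each runs from 250 bases before to 50 after the start site in RefSeq (GRCm38.p6), 5′ to 3′ on the gene's strand. Capitals mark the NFAT core letters GGAAA on either strand (read as TTTCC on the other) and the AP-1 letters TGANTCA, which read alike on both strands. No motif marked here overlaps another.
Tigit, chr16:43664135-43664434, minus strand: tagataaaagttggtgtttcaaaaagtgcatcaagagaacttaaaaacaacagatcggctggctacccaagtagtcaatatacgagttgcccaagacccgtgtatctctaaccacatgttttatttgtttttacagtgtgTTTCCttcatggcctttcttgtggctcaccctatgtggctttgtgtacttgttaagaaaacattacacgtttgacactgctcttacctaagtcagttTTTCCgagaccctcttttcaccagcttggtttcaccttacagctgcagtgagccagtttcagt
Cd200, chr16:45409004-45409303, minus strand: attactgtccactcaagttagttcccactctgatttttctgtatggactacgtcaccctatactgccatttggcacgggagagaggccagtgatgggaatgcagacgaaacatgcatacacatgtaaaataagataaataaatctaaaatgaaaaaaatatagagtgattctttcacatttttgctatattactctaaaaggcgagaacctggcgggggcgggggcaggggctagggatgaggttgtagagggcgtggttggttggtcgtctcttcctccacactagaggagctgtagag
Cd274, chr19:29367188-29367487, plus strand: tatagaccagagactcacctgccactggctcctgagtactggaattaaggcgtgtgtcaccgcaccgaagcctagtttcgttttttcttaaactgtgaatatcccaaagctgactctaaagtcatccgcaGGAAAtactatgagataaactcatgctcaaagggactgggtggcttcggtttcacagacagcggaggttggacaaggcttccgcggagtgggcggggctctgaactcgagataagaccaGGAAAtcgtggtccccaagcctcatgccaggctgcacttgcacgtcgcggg
Havcr2, chr11:46454681-46454980, plus strand: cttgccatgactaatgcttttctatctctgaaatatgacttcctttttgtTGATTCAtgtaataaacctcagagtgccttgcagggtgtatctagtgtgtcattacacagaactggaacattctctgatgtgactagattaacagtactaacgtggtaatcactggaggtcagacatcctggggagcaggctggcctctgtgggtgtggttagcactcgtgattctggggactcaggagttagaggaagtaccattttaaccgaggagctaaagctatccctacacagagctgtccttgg

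The Tigit and Cd274 windows each held 2 GGAAA matches, the Cd200 window none, and the Havcr2 window none but 1 AP-1 match. Of all 32851 RefSeq promoter windows of this length, 61.3% held at least 1 GGAAA, 26.7% at least 2, and 7.81% the AP-1 letters. The matches are common and describe the letters of these windows only. Of the other members, Ctla4 held 1 GGAAA and Pdcd1 2, Btla none, and Cd160 none at 1 of its start sites and 1 at the other. Of the 9 members 8 matched an entry, all but Lag3.

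With either inhibitor Lag3 was lower than in iTregs restimulated without it. Tigit was called lower with CM-4620 and Cd200 with CsA, and their estimates were also below 0 with the other inhibitor. Havcr2 was higher with CsA. Between CM-4620-treated and restimulated iTregs 2 of 8 members changed, both lower (3.3% of all genes changed, 1.5% higher and 1.79% lower), and between CsA-treated and restimulated iTregs 3 of 8, 1 higher and 2 lower (2.92% of all genes changed, 1.57% higher and 1.35% lower). Both comparisons use the same restimulated libraries, and their values are given side by side. Against resting iTregs 3 of 8 members were changed under CM-4620, all higher (7.1% of all genes changed, 3.97% higher and 3.13% lower), and 4 of 8 under CsA, all higher (9.43% of all genes changed, 5.19% higher and 4.24% lower).

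Lag3 had 799.8, 785 and 734 normalized counts with CM-4620 and 926, 819 and 897 with CsA. All 6 libraries lay below the lowest of the restimulated ones, 1212, and above the highest resting one, 641. The log2 fold change against restimulated iTregs was -0.77 ± 0.08 with CM-4620 (adjusted p = 3.31e-05) and -0.58 ± 0.08 with CsA (adjusted p = 0.00046). Both held without each replicate and with edgeR and DESeq2, and both lost the call when all 24 libraries shared 1 fit (adjusted p = 0.276 and 0.445), in which the standard error of Lag3 was 0.33. The spread of that fit includes the tTreg libraries, in which resting Lag3 ran from 17.2 to 87.7. Against resting iTregs Lag3 was at 0.33 with CM-4620, within the fold threshold, and was higher with CsA by 0.52 (adjusted p = 0.000313), which became 0.45 without replicate 1 and was then within that threshold.

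Tigit had 70.4, 71.3 and 79.9 normalized counts with CM-4620 and 107, 105 and 82.4 with CsA. Neither set overlapped with the restimulated or the resting libraries. It was lower with CM-4620 than in restimulated iTregs by -0.84 ± 0.16 (adjusted p = 0.00406), a call that was lost without replicate 1 and without replicate 2 (adjusted p = 0.0554 and 0.152). With CsA the log2 fold change was -0.44 (95% confidence interval -0.79 to -0.10; adjusted p = 0.107). Against resting iTregs Tigit was higher by 0.96 with CsA (adjusted p = 0.000629) and by 0.56 with CM-4620 (adjusted p = 0.0256), the latter not called with DESeq2 (adjusted p = 0.0664) or without replicate 1 (adjusted p = 0.192). The difference between the inhibitors was -0.40 (95% confidence interval -0.74 to -0.06; adjusted p = 0.357).

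Of the ligand genes, Cd200 was called lower with CsA and Cd274 was called with neither inhibitor. Cd200 had 1073, 1186 and 1189 normalized counts with CM-4620 and 925, 950.3 and 972 with CsA, all below the restimulated and above the resting libraries. It was lower with CsA by -0.63 ± 0.07 (adjusted p = 9.74e-05), and its log2 fold change of -0.36 ± 0.07 with CM-4620 (adjusted p = 0.00615) was within the fold threshold. The difference of CM-4620 from CsA was 0.27 ± 0.07 for Cd200 (adjusted p = 0.125) and was not called. Cd274 had 377, 377 and 455 normalized counts with CM-4620 and 443, 445 and 493 with CsA. Its changes of -0.45 ± 0.09 (adjusted p = 0.00779) and -0.25 ± 0.09 (adjusted p = 0.119) were not called, and with either inhibitor it remained higher than in resting iTregs, by 0.92 ± 0.09 and 1.12 ± 0.09 (adjusted p = 7.98e-06 and 9.83e-07).

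Havcr2 was the member that rose with an inhibitor. It had 39.9, 47.2 and 36.8 normalized counts with CsA, on 39 to 46 reads, against 10.1 to 11.2 in restimulated and 8.35 to 12.6 in resting iTregs. With CM-4620 it had 16.3, 16.7 and 9.65, on 11 to 19 reads. The 3 CsA libraries lay above every other iTreg library, and the CM-4620 libraries overlapped with the restimulated ones. The log2 fold change with CsA was 1.84 ± 0.28 against restimulated iTregs (adjusted p = 0.000885) and 1.95 ± 0.28 against resting ones (adjusted p = 0.000162), and with CM-4620 it was 0.34 against restimulated ones (95% confidence interval -0.25 to 0.94). CM-4620-treated cells were lower than CsA-treated cells by -1.50 ± 0.28 (adjusted p = 0.0166), in a comparison in which 2 of 8 members changed, 1 higher and 1 lower (0.36% of all genes changed, 0.0991% higher and 0.261% lower). The rise with CsA ranged from 1.55 to 1.94 over the alternatives in which Havcr2 was tested. It was called in all of these but 1, the omission of replicate 2 (1.77, adjusted p = 0.0529). With the filter of 100 normalized counts, which Havcr2 reached in no iTreg library, it was not tested. The difference between the inhibitors was not called when any 1 replicate was left out (adjusted p from 0.127 to 0.405). In the same libraries the NK cell marker Klrk1, the only one of its list with reads, made the summed list 94.4 to 109 with CsA, 59.2 to 82.5 with CM-4620, 72.8 to 92.7 in restimulated and 27.4 to 55.4 in resting iTregs, and Ncr1 and Klrb1c were at 0. The part of Klrk1-bearing cells in the result was not tested. Myeloid markers summed to at most 3.20 normalized counts in the CsA libraries.

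The other member that differed between the inhibitors was Btla. It had 539.7, 591 and 641 normalized counts with CM-4620 and 399, 364 and 439.8 with CsA, and the sets did not overlap. It was higher with CM-4620 by 0.56 ± 0.10 (adjusted p = 0.0175), which was not called without replicate 1 or replicate 2 (adjusted p = 0.209 and 0.53). Nor was it called with all 24 libraries in 1 fit (adjusted p = 0.082). Against restimulated iTregs, with 477 to 561 normalized counts, the changes were 0.17 with CM-4620 (95% confidence interval -0.05 to 0.39) and -0.39 with CsA (95% confidence interval -0.61 to -0.17; adjusted p = 0.0331), both within the fold threshold. Ctla4 had 1792 to 2068 normalized counts with CM-4620 and 2150.2 to 2296 with CsA, and Pdcd1 189.5 to 243 and 199.9 to 236. Neither was called in any comparison among the 4 iTreg groups. Cd160 was at 0 to 11.2 normalized counts in these libraries and was not tested.

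**Figure D4:**
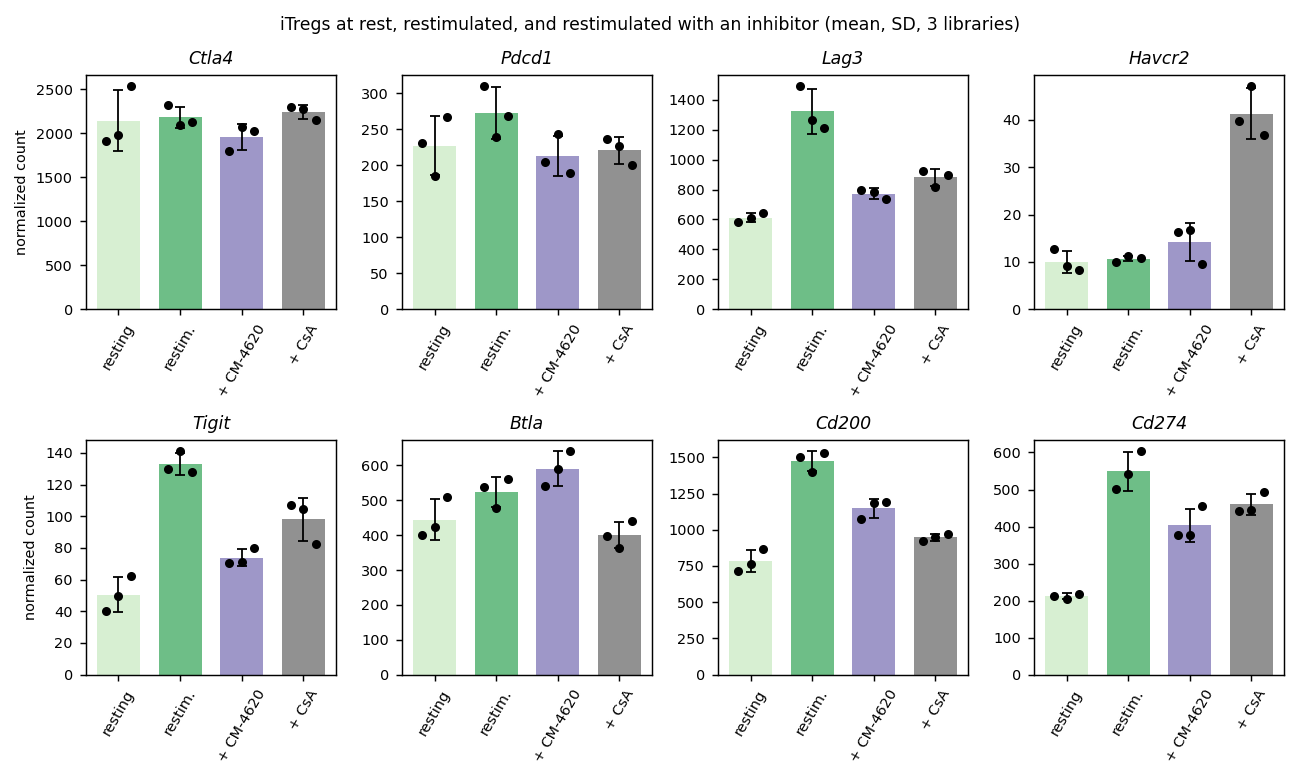
Members in the 4 iTreg groups. The y axis is the normalized count from 0, on a scale of its own for each gene, bars are means, error bars SD over 3 libraries and points single libraries. Lag3, Tigit, Cd200 and Cd274 lie between resting and restimulated levels under both inhibitors, and Havcr2 is high with CsA alone. Cd160 is left out, with at most 10 reads in any of these libraries.

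Genes around these receptors were described from 5 lists, by counts beside the median of all genes. Of the 14 ligands and binding partners 12 were tested. Among them 6 were higher and 3 lower in resting tTregs than in resting Tconvs, where 38.6% of all genes changed, with a list median of 1.14 against -0.02 for all genes, and 5 were higher and 5 lower in resting iTregs than in resting tTregs, where 63.4% of all genes changed. Cd80 and Cd86, the ligands of CTLA-4 and CD28, were at 186 ± 53.0 and 215 ± 32.8 normalized counts in resting tTregs, 15.6 ± 3.06 and 25.7 ± 2.26 in resting Tconvs, and 87.7 ± 16.2 and 16.6 ± 4.85 in resting iTregs (SD, n = 3). Cd86 was lower in iTregs than in tTregs by -3.64 (adjusted p = 8.78e-10). Of B cells, which also express Cd80 and Cd86, the marker Cd79b had 122 to 126 normalized counts in resting tTregs and 26.6 to 36.9 in resting iTregs, and Ms4a1 was at 0 in both. Upon restimulation of iTregs 1 of the 12 was higher and none lower, beside 6.7% and 6.13% of all genes. The higher gene was Pdcd1lg2, which encodes PD-L2, the other ligand of PD-1. It rose from 74.3 ± 12.8 to 272 ± 23.5 (1.87, adjusted p = 8.54e-08), and was lower with CsA than in restimulated cells by -0.58 (adjusted p = 0.0127). Fgl2, which encodes a secreted fibrinogen-like protein of Tregs that TIGIT is known to induce, was at 33.5 ± 15.4 in restimulated iTregs and was higher with CM-4620 (79.1 ± 22.5; 1.29, adjusted p = 0.036) and with CsA (156 ± 51.7; 2.25, adjusted p = 0.00124). In Tconvs 4 of the list rose and 3 fell upon activation, beside 50.2% of all genes, with a list median of 0.32 against -0.04 for all genes. In tTregs 1 rose and 1 fell, beside 21.9% of all genes, with medians of -0.04 and 0.

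The list of genes paired with the members held Cd28, Cd226, Cd96, Icos and Tnfsf14, the last of which encodes a ligand. Of these 5, 1 was higher and 3 were lower in resting iTregs than in resting Tconvs, beside 63.6% of all genes that changed. The list median was -0.56 against 0.02 for all genes. CD226 and CD96 bind the same ligand as TIGIT. Cd226 was at 584 ± 26.4 normalized counts in resting Tconvs, 616 ± 93.6 in resting tTregs and 203 ± 25.1 in resting iTregs, lower in iTregs by -1.52 than in Tconvs (adjusted p = 6.96e-07). Cd96 was at 1720.2 ± 70.3, 1513 ± 238 and 242 ± 16.5, lower by -2.83 (adjusted p = 3.86e-10). Both were also lower in resting iTregs than in resting tTregs, as Tigit was (Cd226 by -1.59, Cd96 by -2.63). Cd226 was higher than in restimulated iTregs under both inhibitors, by 0.70 with CM-4620 and 0.60 with CsA (adjusted p = 0.00144 and 0.00504), whereas Tnfsf14, which encodes LIGHT, the activating partner of HVEM, rose by 1.23 upon restimulation (adjusted p = 3.36e-06) and was lower by -0.68 and -0.66 (adjusted p = 0.00294 and 0.00379). Icos rose in activated Tconvs by 1.80 (adjusted p = 1.97e-09).

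Of the 13 other inhibitory receptors listed, 11 were in the table and 8 were tested in iTregs, of which 1 rose and 4 fell upon restimulation, beside 6.7% and 6.13% of all genes, with a list median of -0.44 against -0.01. Lilrb4a, an inhibitory receptor better known from myeloid and mast cells, rose from 88.9 ± 10.3 to 401 ± 95.5 normalized counts (2.14, adjusted p = 1.67e-07) and was at 428 ± 71.9 with CM-4620 and 468 ± 30.5 with CsA. The genes Gm40645 and Gm49339, the latter on the same strand, share 35.85% of its exon bases, and reads on these could not be separated. Cd101 fell from 323 ± 20.8 to 163 ± 6.51 (-0.99, adjusted p = 3.72e-06) and was higher than in restimulated cells with either inhibitor, at 272 ± 6.45 and 272 ± 37.1. Vsir, which encodes VISTA, fell by 0.91 (adjusted p = 6.36e-08), and by 2.18 in activated Tconvs (adjusted p = 1.65e-11). At rest Klrg1 was lower in iTregs than in tTregs by -6.72 and Lair1, a collagen receptor, was higher by 5.23 (adjusted p = 5.81e-09 and 5.6e-11). In that comparison 2 of 9 were higher and 3 lower, beside 32.3% and 31.1% of all genes, so that the count is no result about the list. Among resting cells Klrg1 was highest in tTregs, above Tconvs by 3.76, and it was lower in iTregs than in Tconvs by -2.97. Whether Klrg1 passed the filter through tTregs was not examined, and its fold change against a low level depends on the added count of 1.

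Of the 14 phosphatases and adaptors, 2 were higher and 7 lower in resting iTregs than in resting tTregs, with a list median of -0.53 against 0.02 for all genes, of which 63.4% changed, so that the count is no result about the list. Among its members Ptpn22, a phosphatase of Lck and ZAP-70, was lower by -1.33 and Pag1, which anchors Csk, by -1.83 (adjusted p = 2.32e-07 and 9.77e-07). Upon restimulation none rose and 2 fell, beside 6.7% and 6.13% of all genes. Those that fell were Pag1, by 0.93, and Dok2, by 0.62 (adjusted p = 0.000561 and 0.00476). No member of the list was called between either inhibitor and restimulated cells in limma, beside 3.3% of all genes with CM-4620 and 2.92% with CsA. Of 6 genes of trafficking and shedding, Lrba, which keeps CTLA-4 from lysosomal degradation, was at 1013 ± 56.1 in resting tTregs, 297 ± 15.4 in resting Tconvs and 182 ± 21.5 in resting iTregs, lower in iTregs than in tTregs by -2.48 (adjusted p = 3.02e-11). In that comparison 1 of the 6 was higher and 2 were lower, beside 32.3% and 31.1% of all genes. Trat1, whose product TRIM helps bring CTLA-4 to the surface, fell upon restimulation from 934 ± 160.1 to 269.8 ± 16.6 (-1.78, adjusted p = 2.63e-08). It was the only 1 of the 6 that was called upon restimulation, beside 12.8% of all genes. It was higher with CM-4620 (564 ± 50.0) than in restimulated iTregs by 1.06 (adjusted p = 3.14e-05) and than with CsA by 0.63 (adjusted p = 0.0097).

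The genes most like each member in profile were searched by Pearson's correlation of log2 values over the 24 libraries among 9157 genes. The libraries fall into 8 groups of cells, so that these values describe shared group levels. The closest to Ctla4 was Map3k8 (r = 0.978), to Pdcd1 Nipal3 (r = 0.976), to Tigit Vps8 (r = 0.974), to Lag3 Nt5m (r = 0.959), to Cd274 Gbp10 (r = 0.943), to Cd200 Arl1 (r = 0.932) followed by Tnfrsf4, which encodes OX40 (r = 0.93), to Havcr2 Vav2 (r = 0.904), to Btla Itgal (r = 0.845) and to Cd160 Tmco6 (r = 0.782).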

How the data were processed

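Only the 24 RNA-seq libraries (SMART-seq2, polyA-selected, no molecular identifiers) were used, and ATAC-seq and CUT&Tag samples of the series were not analysed here. Per the labels and methods, the authors trimmed reads with cutadapt 1.18, aligned them with STAR 2.5.3 to mm10 (GRCm38) and counted them per gene with RSEM 1.3.0. The authors deposited normalized counts (unit: signal), that is gene counts divided by a size factor per library. Dividing by the step of 1 read gave whole reads for 100% of values (tolerance 0.01). RSEM shares out reads that fit several genes, and antisense or overlapping exons could not be separated.

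Samples were grouped by their titles, which name iTregs for the 3 CsA libraries where the source label says only Treg. Genes that reached 10 normalized counts in 3 or more libraries of a fit were tested with limma 3.58.1 (R 4.3.3) on log2(normalized count + 1), a scale that understates changes of low genes, with an intensity trend and Benjamini-Hochberg adjustment over all genes tested. The 15 libraries of Tconvs, tTregs and resting iTregs (11495 genes), the 12 libraries of iTregs (11105 genes) and all 24 libraries (11725 genes, for comparisons and differences in response across both sets) were each fitted together. Thresholds were an adjusted p of 0.05 and a log2 fold change of 0.5, as in the study. Intervals are those of limma. Fits were tested on simulated data with 200 changed genes. Alternatives were size factors of the fitted libraries, quantile normalization, another pseudocount (0.1 or 5), another filter (none or 100 normalized counts), other sets of libraries, a replicate block, each replicate left out of every group, and edgeR 4.0.16 and DESeq2 1.42.0 on recovered reads. The omission of replicate 1 of resting tTregs or replicate 2 of activated tTregs was added after seeing the data. Members and lists were chosen with earlier results of these data known. Of each list, up to 3 called genes per comparison with the largest changes were named, and of correlated genes the closest of those with at least 100 normalized counts in 3 libraries. Figures were drawn with matplotlib 3.10.9. Of the markers on the cell type lists, 1 is not reported here.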

Additional observations from a re-analysis of the deposited data

Results flagged for a closer look

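The results below stood out because the response to stimulation of a member differed between kinds of cells, by the interaction term in limma with adjustment over all genes. Values are differences between log2 fold changes, and the durations of activation and restimulation are not stated, so that time and kind of cell cannot be told apart. The iTreg responses were each compared with Tconv and tTreg responses, so that the sets share libraries.

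The response of Tconvs exceeded that of tTregs by 2.10 for Ctla4 (adjusted p = 4.33e-06), 2.12 for Lag3 (adjusted p = 0.00758), 2.73 for Havcr2 (adjusted p = 4.07e-05), 1.33 for Cd200 (adjusted p = 0.000332) and 3.12 for Cd274 (adjusted p = 1.62e-07). For Pdcd1 it was lower by -0.80 (adjusted p = 0.0317), which was not called without replicate 2 of activated tTregs (-0.54, adjusted p = 0.0539). This difference was also not called with quantile normalization, with a replicate block, or without replicate 2 or replicate 3 of every group. That for Lag3 was not called without replicate 2 of every group (1.77, adjusted p = 0.129) nor without replicate 3 (1.85, adjusted p = 0.0664).

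The response of iTregs exceeded that of tTregs by 1.13 for Pdcd1 (adjusted p = 0.00203), 1.51 for Tigit (adjusted p = 2.31e-05) and 2.10 for Cd274 (adjusted p = 3.07e-07), and for Lag3 the difference was -1.75 (adjusted p = 0.00801). The difference for Lag3 was not called in a fit of the compared groups alone (adjusted p = 0.0627). The difference for Pdcd1 was not called without replicate 1 of every group (0.78, adjusted p = 0.122), and that of Ctla4, which was not called with all libraries, was called without replicate 2 of activated tTregs (0.70, adjusted p = 0.000871).

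Against Tconvs, the response of iTregs was greater by 1.93 for Pdcd1 (adjusted p = 1.58e-06) and by 1.70 for Tigit (adjusted p = 1.04e-06). The difference was -1.63 for Ctla4 (adjusted p = 4.13e-07), -3.88 for Lag3 (adjusted p = 5.49e-07), -3.37 for Havcr2 (adjusted p = 7.29e-08), -1.23 for Cd200 (adjusted p = 1.53e-05) and -1.03 for Cd274 (adjusted p = 0.000394). Resting iTregs already had 613 ± 27.6 normalized counts of Lag3 against 45.6 ± 7.48 in resting Tconvs (SD, n = 3).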

How the results depend on the processing

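Of 2470 recomputed log2 fold changes of members, 2394 kept their direction and side of the thresholds, 55 lost the call, 21 gained it and 0 called values changed sign. Of 288 recomputed counts of members, 278 stayed within 1.5 times the reported count. The others follow, and their cause was not tested. Members changed between activated and resting tTregs numbered 2 to 5 with a replicate left out of every group (5 with all libraries, 2 without replicate 1). Between resting iTregs and activated tTregs they numbered 3 with a filter of 100 (5 reported), which leaves fewer genes tested. With CM-4620 against restimulated iTregs they numbered 1 to 2 with a replicate left out (1 without replicate 1 and without replicate 2) and 1 with all 24 libraries in 1 fit (2 reported). Between CM-4620 and CsA they numbered 0 to 1 with a replicate left out (0 without replicate 1 and without replicate 2), 1 with a filter of 100 and 1 with all 24 libraries (2 reported).

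Among the 15 libraries of Tconvs, tTregs and resting iTregs, deviations of same-numbered replicates had a mean correlation of -0.007 over 30 pairs, with a range of -0.425 to 0.244. The lowest was that of resting and activated tTregs numbered 1. Resting tTreg replicate 3 with activated replicate 1 had 0.414, and resting replicate 1 with activated replicate 2 had 0.28. Among iTregs the mean for same-numbered replicates was 0.152 over 18 pairs, 10 of them over 0.1, against -0.0754 for libraries of other numbers. Same-numbered iTreg libraries thus deviated together in part. Since the pairs were not all over 0.1 in either set and no label ties the numbers to animals or cultures, the fits without the replicate block were kept. With a replicate block 1 call of a member was lost, the difference in response of Pdcd1 between Tconvs and tTregs (-0.80, adjusted p = 0.0505). The counts over all genes that moved by more than 1.5 times were 1425 to 878 for restimulated against resting iTregs, 789 to 479 for CM-4620 and 1047 to 654 for CsA against resting iTregs, all with a filter of 100. They were 366 to between 170 and 206 for CM-4620 against restimulated iTregs without replicate 2 or 1, and 232 with all 24 libraries. For CsA against restimulated iTregs they were 324 to 124 and 132 without replicate 2 or 1, 213 with a filter of 100 and 187 with all 24 libraries, and for CM-4620 against CsA 40 to 4 and 10 without replicate 2 or 1 and 10 with all 24 libraries. The difference in response of iTregs and tTregs gave 2501 genes, or 1520 without replicate 1. On recovered reads edgeR and DESeq2 called 367 and 343 genes for CM-4620 and 331 and 294 for CsA against restimulated iTregs. Depth limits Cd160, and Havcr2 in iTregs, where 8.35 to 16.7 normalized counts without CsA rest on 9 to 19 reads.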
